A study of Mus musculus with 10 samples.

Results

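The GATA factors and the erythroid transcription factors that act with them were followed in RNA-seq values of mouse CD34- HSCs. The 10 genes were chosen by symbol: Gata1, Gata2, Gata3, Zfpm1, Klf1, Tal1, Lmo2, Ldb1, Nfe2 and Gfi1b. They were 10 of the 33393 genes and 50 of the 95912 transcripts in the files. CD34- HSCs (Lin- Sca-1+ c-Kit+ CD34- Flt3-) were sorted from the bone marrow of C57BL/6 mice at 8 weeks of age. Controls were Reg1flox/flox, carrying floxed alleles of the Regnase-1 gene Zc3h12a and no Cre. Reg1Δ/Δ mice carried the same floxed alleles with Vav1-iCre, which acts throughout the blood lineages, so every blood cell of the mouse is a possible site of deletion. There were 5 samples per group, 3 in experiment 1 and 2 in experiment 2, as far as sample names and group sizes tell. Nothing in the sources used here says whether a sample was 1 mouse or a pool, so the p values measure the spread between these samples.

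Gata2 keeps blood stem and progenitor cells, and Gata1 drives red cell, platelet, mast cell and eosinophil development. Both proteins bind the same GATA motif, and during red cell maturation Gata1 takes the place of Gata2 at shared sites and shuts off the Gata2 gene, which is called the GATA switch. Zfpm1 (FOG-1) is the cofactor that Gata1 needs for it, Tal1, Lmo2 and Ldb1 form a complex with GATA factors on paired E-box and GATA sites, and Klf1, Nfe2 and Gfi1b act on red cell and platelet genes beside them.

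GATA motifs near the start sites are shown first, since Gata1, Gata2 and Gata3 bind such motifs and are known to act on other members. RefSeq promoters (250 bases before to 50 after the start, GRCm38.p6) were on hand for 8 of the 10 members, with 12 start sites among them. A GATA motif (AGATAA, or the same letters with T first, G last or both, on either strand) was in 5 of the 12 promoters, 1 each of Gata3, Gfi1b, Klf1, Ldb1 and Tal1, and in 29.8% of all 32851 promoters. The CACCC-type motif CCNCNCCC was in 10 of the 12, against 49.5% of all, and the E-box CAGNTG was in 5 of the 12, against 51.4%. None of these motifs contains another, and a match is a run of letters, not a measured binding site. The 30-base windows that hold a GATA motif wholly before the start are printed 5′ to 3′ on the strand of the gene, with the motif in capitals. Where the capitals begin with TTATC, the motif lies on the other strand.
Gfi1b, chr2:28622085-28622114, minus strand: tctgtgaagtttTGATAAgcaaatgtggct
Klf1, chr8:84901890-84901919, plus strand: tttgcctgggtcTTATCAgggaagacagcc
Ldb1, chr19:46037291-46037320, minus strand: gctcaactgtTTATCTggtgggccgcaccc
Ldb1, chr19:46037253-46037282, minus strand: cgccagccccccTTATCTttctatcccttg
Tal1, chr4:115056209-115056238, plus strand: ctatagagtcttTTATCTttgagcaattcc
The capitals begin 120 bases before the RefSeq start, which need not be that of GENCODE, in Gfi1b, 80 in Klf1, 240 and 200 in Ldb1, and 205 in Tal1.

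Values are TPM (relative transcript abundance corrected for length, with a total of 1000000 per library), summed over the transcripts of a gene. No read numbers can be had from TPM, so the depth is unknown, and a rise of some genes lowers the rest. Differences are log2 fold changes of TPM + 1, Reg1Δ/Δ over control, from limma with the experiment as a covariate, over 12874 genes with at least 1 TPM in at least 5 samples, and FDR is the Benjamini-Hochberg adjusted p over all of them. With a pseudocount of 1, the fold change of genes near 1 TPM is understated. In these bulk values, fewer cells of a type and less RNA per cell cannot be told apart.

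Several facts of the whole series bear on the values. Zc3h12a itself was higher in the libraries labelled Reg1Δ/Δ (5.38 ± 3.75 TPM against 2.45 ± 2.03, SD, n = 5 each; log2 fold change 0.83, FDR = 0.0314), against its label. The call was lost in each experiment alone (log2 fold change 0.52, FDR = 0.0527, and 1.30, FDR = 0.265), without the filter (FDR = 0.0897), without the experiment as a covariate (FDR = 0.214), under a block for the replicate number (FDR = 0.0505) and in 4 of the 10 fits that left out a library (FDR up to 0.0768). Without control replicate 1 of experiment 2 the log2 fold change was 0.53 (FDR = 0.0121), and no fit turned its direction. In the controls it had 1.83, 1.28, 1.6, 1.48 and 6.07 TPM, against 3.54, 2.08, 2.51, 10.3 and 8.52 TPM in the libraries labelled Reg1Δ/Δ. The values are per transcript and do not show which exons the reads covered, so they do not tell whether the deleted part was read. Directions below go by label. In experiment 1, transcripts under 400 bases held 42.8% to 45.6% of the TPM, and in experiment 2 they held 9.95% to 18.3%, so levels are compared within an experiment. One file of experiment 2 carried the column name of another library and was taken under its own sample. Markers of the sorted cells differed too. Of 13 tested stem cell markers, 12 were called lower in the libraries labelled Reg1Δ/Δ and none higher, against 37.9% of all tested genes lower and 15% higher. Where 1 TPM was asked in every library, 6 were lower (35.3% of all) and none higher, and 1 of the 13, Fgd5, had reached 1 TPM in the controls alone. Among the 13, the lowest log2 fold changes were those of Hlf (−5.22) and Procr (−4.13). Ly6a, which encodes the Sca-1 of the gate, had a log2 fold change of 0.92 (FDR = 0.155). Kit fell by 1.39 on the log2 scale (FDR = 0.000108). Cd34 and Flt3, which the gate selects against, had log2 fold changes of −3.02 and −2.85. Summed TPM of 11 B lineage markers ranged from 187 to 1224 in the controls of experiment 1 and from 1417 to 1611 in those of experiment 2, against at most 24.2 in the libraries labelled Reg1Δ/Δ. For 14 neutrophil and monocyte markers the controls ranged from 3541 to 13935 and the libraries labelled Reg1Δ/Δ from 375 to 1246. None of the B lineage markers was at 0 in a whole group, and 1 neutrophil and monocyte marker was at 0 in the libraries labelled Reg1Δ/Δ of experiment 2. The part of these markers in the results was not tested.

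The members went in both directions. Gata1, Klf1, Gfi1b and Tal1 were called higher in the libraries labelled Reg1Δ/Δ, where 15% of all tested genes were called higher. Gata2, Gata3, Lmo2 and Nfe2 were called lower, where 37.9% of all genes were called lower. Zfpm1 and Ldb1 did not pass the threshold of 0.05. The median log2 fold change of the 10 members was −0.12 and that of all tested genes −0.25. Quantile normalization moved the median of all genes by 0.40 and median-of-ratios scaling by 0.30, to 3861 genes higher and 2636 lower and to 3973 higher and 3425 lower, in place of 1933 and 4880. None of the 10 members changed direction under either scaling.

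**Figure D1:**
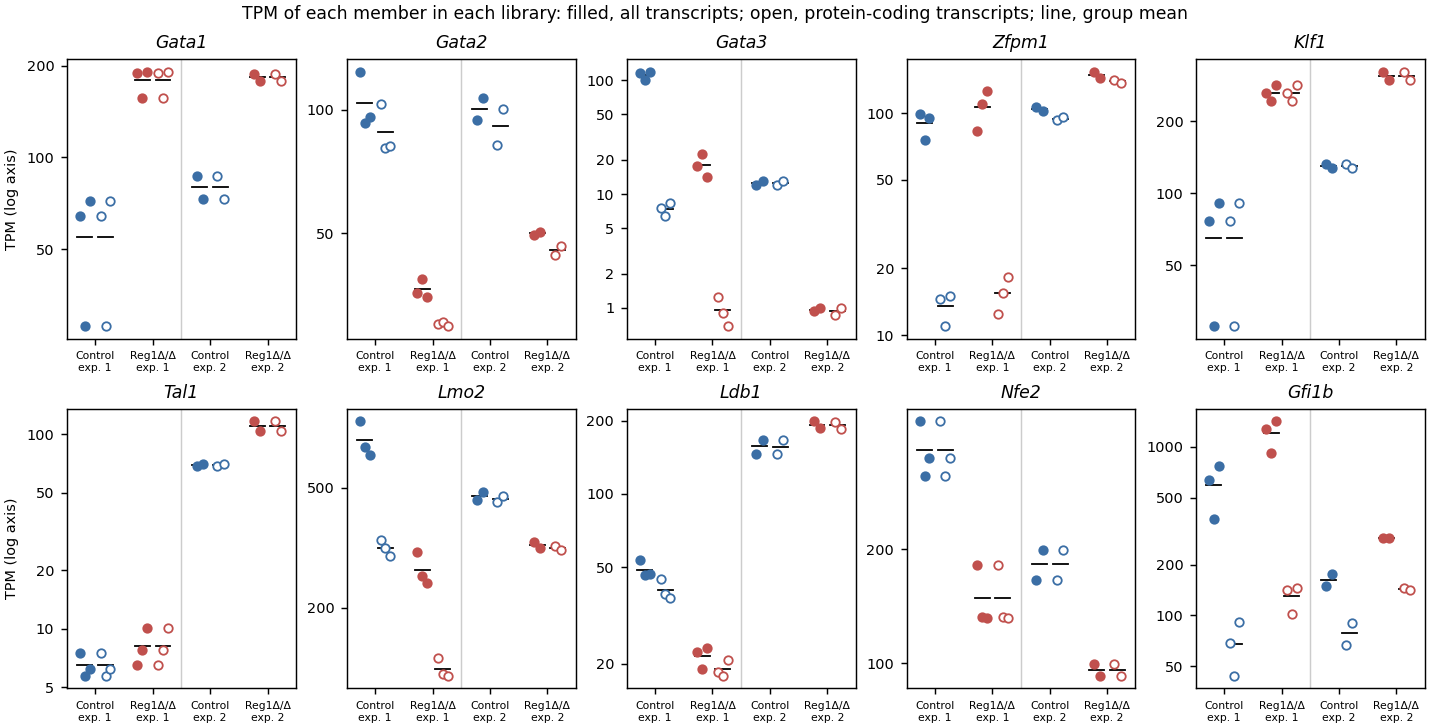
TPM of the 10 members in the 10 libraries on log axes that differ between panels, by group and experiment (blue, controls; red, libraries labelled Reg1Δ/Δ; filled, all transcripts; open, protein-coding transcripts; line, group mean). Gata1, Klf1 and Gfi1b lie above, and Gata2, Gata3, Lmo2 and Nfe2 below, all controls of their experiment in every library labelled Reg1Δ/Δ.

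Gata1 (ENSMUSG00000031162, chromosome X of GRCm38, 7959260 to 7978071, minus strand) had 64.4, 28.0 and 72.2 TPM in the controls of experiment 1 and 86.8 and 73.0 in those of experiment 2. In the libraries labelled Reg1Δ/Δ it had 189, 157 and 191 TPM in experiment 1 and 188 and 178 in experiment 2. The groups did not overlap, and control replicate 2 of experiment 1 was far below the other controls. Its log2 fold change was 1.55 (SE 0.25, FDR = 0.000638), or 2.93-fold. The effect was 1.79 in experiment 1 alone and 1.19 in experiment 2 alone. Within experiments, an exact two-sided permutation test of the difference gave p = 0.0167, the smallest that the 120 assignments allow. All Gata1 transcripts listed were protein-coding, and the longest, of 1902 bases, went from a mean of 52.8 to 171 TPM in experiment 1 and from 78.1 to 175 in experiment 2 (log2 fold change 1.54, FDR = 0.00364 over all 31937 transcripts tested).

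Gata2 (ENSMUSG00000015053, chromosome 6, 88193891 to 88207032, plus strand) moved the other way. Its TPM was 124, 92.6 and 96.0 in the controls of experiment 1 and 94.3 and 107 in experiment 2. In the libraries labelled Reg1Δ/Δ the values were 35.7, 38.6 and 35.0 in experiment 1 and 49.5 and 50.3 in experiment 2. No library labelled Reg1Δ/Δ reached the lowest control. Its log2 fold change was −1.28 (SE 0.13, FDR = 3.67e-05), −1.48 in experiment 1 alone and −0.99 in experiment 2 alone. All 4 of its transcripts that could be tested were lower, among them the 3135-base coding transcript (45.3 to 14.4 TPM in experiment 1 and 52.3 to 22.8 in experiment 2) and the 423-base coding transcript (40.2 to 14.5 and 32.3 to 18.7), which lies wholly within exons of other coding transcripts of Gata2. A retained-intron transcript of 841 bases fell as well (15.3 to 6.41 and 8.74 to 4.58, log2 fold change −0.97, FDR = 0.0222). Among all tested transcripts, 14.9% were called lower and 6.4% higher. Mast cells also use Gata2, and the summed TPM of 13 mast cell and basophil markers was 120.0 to 198 in the controls of experiment 1 against 53.1 to 58.0, and 91.2 to 91.9 in those of experiment 2 against 47.9 to 53.1. Most of the difference was 1 gene, the protease Cpa3 (82.8 to 152 TPM against 20.9 to 28.0, and 39.2 to 42.9 against 7.63 to 7.68). Without it the sum was 25.7 to 45.6 in the controls of experiment 1 against 29.9 to 32.2, where the groups overlapped, and 48.3 to 52.7 in those of experiment 2 against 40.3 to 45.4. The gene for the mast cell protease Mcpt4 was at 0 in all libraries of experiment 1. The part of these cells in the fall of Gata2 was not tested.

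The ratio of Gata1 to Gata2 brings both together. In the controls it was 0.520, 0.302 and 0.753 in experiment 1 and 0.920 and 0.685 in experiment 2, so Gata2 was the more abundant in all 5 by TPM over all transcripts. By protein-coding TPM, the controls had 0.624, 0.347, 0.888, 1.06 and 0.728, so that in control replicate 1 of experiment 2 Gata1 was slightly the more abundant. In the libraries labelled Reg1Δ/Δ it was 5.29, 4.07 and 5.45 in experiment 1 and 3.79 and 3.54 in experiment 2, so Gata1 was the more abundant in all 5, as it was by protein-coding TPM (3.83 to 6.44). The log2 ratio (pseudocount 1) differed by 3.27 in experiment 1 and 2.18 in experiment 2, with a mean over both of 2.83 and an SD within groups of 0.38. The ratio is given as a description, with no test of its own.

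**Figure D2:**
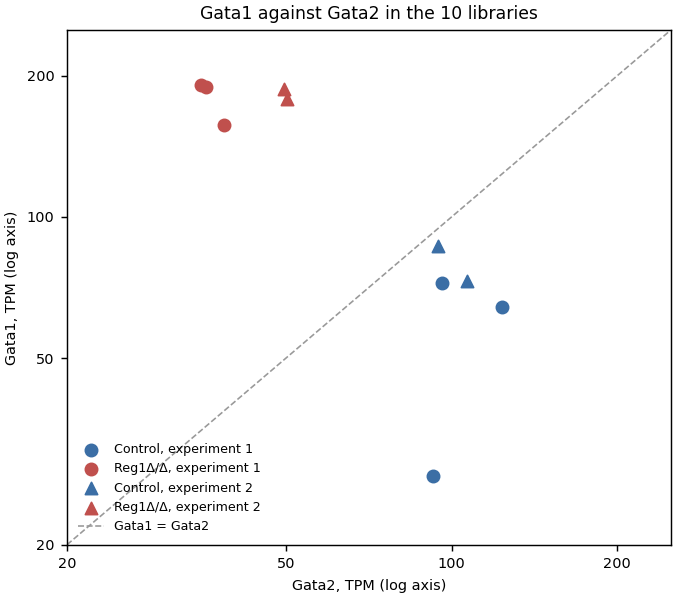
Gata1 against Gata2 in TPM over all transcripts on log axes, 1 point per library (circles, experiment 1; triangles, experiment 2; dashed line, equal TPM). The 5 controls lie below the line with ratios from 0.302 to 0.920, and the 5 libraries labelled Reg1Δ/Δ lie above it with ratios from 3.54 to 5.45. By protein-coding TPM, 1 control, at 1.06, would lie just above the line.

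Gata3 (ENSMUSG00000015619, chromosome 2, 9857078 to 9890034, minus strand), the GATA factor of T cells and innate lymphoid cells that stem cells also express, had the largest change of the 10. It had 115, 99.8 and 118 TPM in the controls of experiment 1 and 12 and 13 in those of experiment 2. The libraries labelled Reg1Δ/Δ had 17.6, 22.5 and 14.2 TPM in experiment 1 and 0.932 and 1.0 in experiment 2. The groups stood apart in both experiments, with a log2 fold change of −2.65 (SE 0.13, FDR = 5.15e-07), −2.57 in experiment 1 alone and −2.78 in experiment 2 alone. Most of the level in experiment 1 was that of a non-coding transcript of 243 bases, with 93.5 to 110 TPM in the controls, which was at 0 in all 4 libraries of experiment 2. Of its 243 bases, 184 lie in exons of the coding transcript. The 3215-base coding transcript alone had 7.56, 6.35 and 8.39 TPM in the controls of experiment 1 against 1.26, 0.906 and 0.693, and 12 and 13 against 0.860 and 1.0 in experiment 2. It was thus lower in every library labelled Reg1Δ/Δ, near or below the 1 TPM that the filter uses. The summed TPM of 15 markers of T cells and innate lymphoid cells was 208 to 344 and 345 to 354 in the controls of the experiments against 14.7 to 29.4 and 20.3 to 22.9. Much of the sum in the controls was Trbc1 (111 to 195 TPM in experiment 1 and 104 to 115 in experiment 2) and Tcf7 (24.8 to 44.5 and 94.5 to 113). Cd3e, Cd3d, Cd3g and Trac had at most 4.46 TPM in any library and were not tested. Of the 15, 1 was at 0 in the libraries labelled Reg1Δ/Δ of experiment 1 and 2 in those of experiment 2, and none in the controls. Their part in the fall of Gata3 was not tested.

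Zfpm1 (ENSMUSG00000049577, chromosome 8, 122282141 to 122337251, plus strand) encodes FOG-1, the cofactor of Gata1. It had 99.2, 76.0 and 95.0 TPM in the controls of experiment 1 and 107 and 102 in experiment 2. Libraries labelled Reg1Δ/Δ had 83.2, 110.0 and 126 TPM in experiment 1 and 154 and 144 in experiment 2. The groups overlapped in experiment 1 and not in experiment 2. The log2 fold change was 0.34 (SE 0.14, FDR = 0.0657), so no change was called, though the FDR was 0.000783 with median-of-ratios scaling and 0.0147 without replicate 1 of the libraries labelled Reg1Δ/Δ in experiment 1. Protein-coding TPM of Zfpm1 was 11 to 18.4 in the libraries of experiment 1 and 93.1 to 142 in those of experiment 2.

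Klf1 (ENSMUSG00000054191, chromosome 8, 84901928 to 84905291, plus strand), which activates globin, membrane and heme genes in red cell precursors, has 1 transcript in the files. The controls had 76.8, 27.8 and 90.7 TPM in experiment 1 and 132 and 127 in experiment 2. The libraries labelled Reg1Δ/Δ had 264, 242 and 284 in experiment 1 and 322 and 297 in experiment 2. The groups were well apart, and the lowest control was the one that was lowest for Gata1. The log2 fold change was 1.80 (SE 0.31, FDR = 0.000955), the largest rise among the members, with 2.16 in experiment 1 alone and 1.25 in experiment 2 alone. Klf1 was also among the 3 protein-coding genes whose values went most closely with Gata1.

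Gfi1b (ENSMUSG00000026815, chromosome 2, 28609450 to 28621982, minus strand) encodes a repressor needed for red cells and platelets. It had 636, 375 and 776 TPM in the controls of experiment 1 and 150.0 and 176 in those of experiment 2. Those labelled Reg1Δ/Δ had 1277, 921 and 1419 in experiment 1 and 287 and 289 in experiment 2. No overlap was seen, and the log2 fold change was 0.96 (SE 0.20, FDR = 0.00316). A non-coding transcript of 238 bases held most of the TPM in experiment 1 (319 to 652 in the controls, 766 to 1202 with the Reg1Δ/Δ label) and was at 0 to 4.75 in experiment 2. Of its 238 bases, 230 lie in exons of the coding transcripts, so its reads and theirs are told apart only by the estimate. Protein-coding TPM alone was 68.1, 43.9 and 91.5 in the controls of experiment 1 against 142, 102 and 145, and 66.3 and 90.1 in those of experiment 2 against 145 and 142. The groups did not overlap in this count either, and with protein-coding transcripts rescaled to the same total the log2 fold change was 0.91 (FDR = 0.00244).

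**Figure D3:**
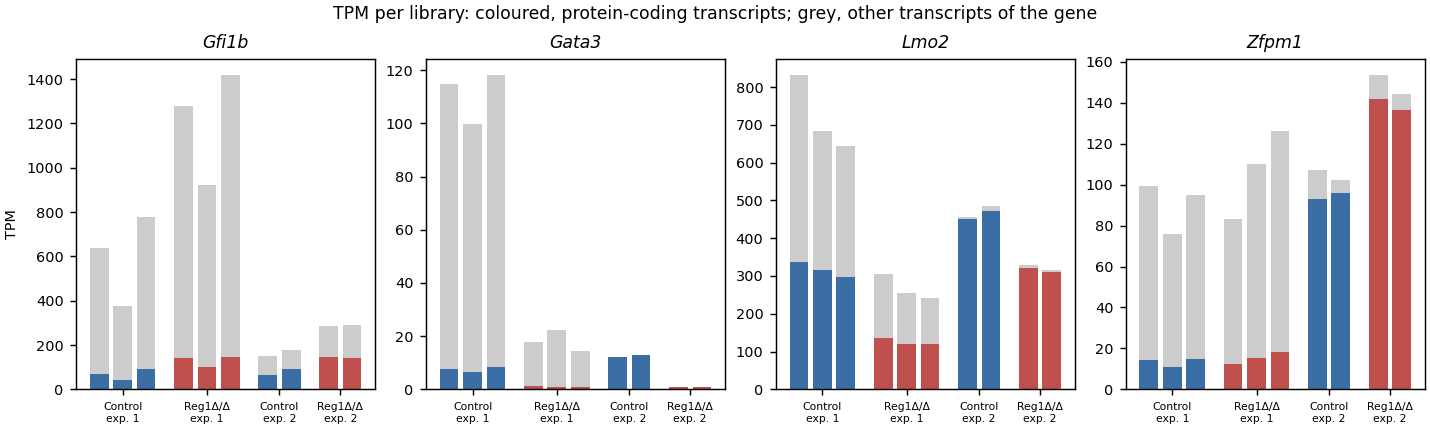
Stacked bars of TPM per library for Gfi1b, Gata3, Lmo2 and Zfpm1 (coloured, protein-coding transcripts; grey, other transcripts; blue, controls; red, libraries labelled Reg1Δ/Δ). In experiment 1 protein-coding transcripts held 10.2% to 11.8% of the Gfi1b and 14.1% to 15.8% of the Zfpm1 TPM, and in experiment 2 they held 44.2% to 51.3% and 86.9% to 94.6%.

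Tal1 (ENSMUSG00000028717, chromosome 4, 115056426 to 115071755, plus strand) is the E-box binding factor that starts the blood lineage. It had 7.54, 5.74 and 6.17 TPM in the controls of experiment 1 and 68.4 and 70.9 in those of experiment 2. The libraries labelled Reg1Δ/Δ had 6.54, 7.79 and 10.1 TPM in experiment 1 and 117 and 105 in experiment 2. The groups overlapped in experiment 1, through replicate 1 of the libraries labelled Reg1Δ/Δ, and not in experiment 2. The log2 fold change of 0.43 (SE 0.14, FDR = 0.0265) was 0.28 in experiment 1 alone (FDR = 0.248) and 0.66 in experiment 2 alone (FDR = 0.0447). The call was lost in 6 of the 10 fits that left out 1 library (FDR up to 0.0680). These were the fits without control replicate 2 (FDR = 0.0550) or Reg1Δ/Δ replicate 3 (0.0680) of experiment 1, and without any of the 4 libraries of experiment 2 (0.0544 to 0.0678). Under quantile normalization the log2 fold change was 0.88 (FDR = 0.000456) and under median-of-ratios scaling 0.75 (FDR = 0.000483). Its transcripts did not all go the same way. A coding transcript of 683 bases was lower (2.10 to 0.919 TPM in experiment 1 and 8.11 to 4.62 in experiment 2, log2 fold change −0.71, FDR = 0.0118). The 4213-base transcript, the most abundant in both experiments in the controls, went from 3.11 to 3.46 TPM and from 42.8 to 59.3 (log2 fold change 0.28, FDR = 0.292). A 3703-base transcript at 14.7 and 37.8 TPM in experiment 2 was below the filter, with 0.162 and 0.243 TPM in experiment 1.

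Lmo2 (ENSMUSG00000032698, chromosome 2, 103957986 to 103981878, plus strand) encodes the bridge between Tal1, GATA factors and Ldb1. It had 832, 683 and 644 TPM in the controls of experiment 1 and 457 and 484 in experiment 2. With the Reg1Δ/Δ label it had 305, 255 and 242 in experiment 1 and 329.7 and 316 in experiment 2. It was below all controls of the same experiment throughout, with a log2 fold change of −1.07 (SE 0.18, FDR = 0.00073), −1.42 in experiment 1 alone and −0.54 in experiment 2 alone. The effects of the experiments differed by 0.88 on the log2 scale (interaction FDR = 0.187). Of 6 tested transcripts 4 were lower and 1, a 710-base coding transcript, was higher (1.94 to 5.46 TPM in experiment 1 and 36.1 to 68.6 in experiment 2, log2 fold change 1.08, FDR = 0.00411). The most abundant coding transcript, of 1529 bases, fell from 249 to 107 TPM in experiment 1 and from 239 to 199.6 in experiment 2. The 710-base transcript thus rose while the gene as a whole fell, and all but 9 of its 710 bases lie in exons of other coding transcripts.

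Ldb1 (ENSMUSG00000025223, chromosome 19, 46031570 to 46045214, minus strand), which joins such complexes across distant sites, was the member whose effect changed sign. In the controls it stood at 53.3, 46.4 and 46.7 TPM in experiment 1 and at 146 and 167 in experiment 2. The libraries labelled Reg1Δ/Δ had 22.3, 19.1 and 23.2 in experiment 1 and 199 and 186 in experiment 2. All were below the controls in experiment 1, and both were above them in experiment 2. The log2 fold change was −0.57 over both (SE 0.25, FDR = 0.0801), −1.15 in experiment 1 alone (FDR = 0.000873) and 0.30 in experiment 2 alone (FDR = 0.174). The difference between the experiments was 1.44 (SE 0.21, interaction FDR = 0.0329), where 0.443% of all tested genes were called. For the other 9 members the interaction FDR was 0.187 to 0.874. Across both experiments the FDR was 0.0275 without control replicate 1 and 0.0391 without Reg1Δ/Δ replicate 1 of experiment 2.

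Nfe2 (ENSMUSG00000058794, chromosome 15, 103248212 to 103258403, minus strand), a factor of platelet formation and globin expression, had 434, 311 and 346 TPM in the controls of experiment 1 and 166 and 199 in experiment 2. With the Reg1Δ/Δ label it had 182, 132 and 132 in experiment 1 and 99.7 and 92.9 in experiment 2. Every library with that label lay below the controls of its experiment, and the log2 fold change was −1.14 (SE 0.15, FDR = 0.00017), −1.29 in experiment 1 alone and −0.91 in experiment 2 alone. The main coding transcript, of 1697 bases, fell from 170 to 66.8 TPM and from 151 to 72.9. Of 6 tested Nfe2 transcripts 4 were lower and none higher.

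**Figure D4:**
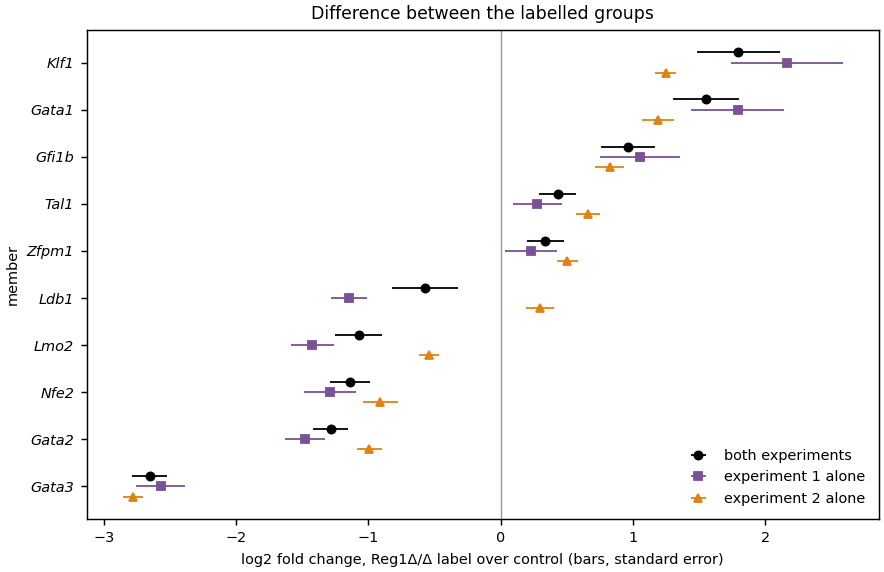
Log2 fold change of each member, libraries labelled Reg1Δ/Δ over controls, with its standard error (black circles, both experiments; squares, experiment 1 alone; triangles, experiment 2 alone). The 2 experiments fall on the same side of 0 for 9 members, and Ldb1 is at −1.15 in experiment 1 and 0.30 in experiment 2.

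Every library labelled Reg1Δ/Δ lay above all controls of its experiment for 3 members, as it did for 12.7% of all tested genes, and below them for 4 members, as for 31.4% of all. In experiment 1 alone 3 members were called higher (12% of all genes) and 5 lower (38.3%), and in experiment 2 alone 4 were higher (3.51%) and 4 lower (12.3%). In a test across all 50 listed transcripts of the members, 38 could be tested, and 7 were higher (6.4% of all tested transcripts) and 15 lower (14.9%).

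The order of the members by protein-coding TPM differed between the groups. In the controls of experiment 1, Nfe2 (364 ± 62.9, SD, n = 3) and Lmo2 (317 ± 19.4) led with overlapping ranges. Gata2, Gfi1b, Klf1, Gata1 and Ldb1 followed from 88.3 ± 12.8 down to 40.3 ± 3.71, each overlapping the next, and Zfpm1 (13.5), Gata3 (7.43) and Tal1 (6.49) were lowest. With the Reg1Δ/Δ label Klf1 came first (264 ± 20.8), above the range of Gata1 (179 ± 19.0), which overlapped that of Nfe2 (149 ± 28.7). In the controls of experiment 2, Lmo2 led (461 ± 15.2, SD, n = 2), and from Zfpm1 (94.5) through Gata2, Gata1 and Gfi1b to Tal1 (69.6) each range overlapped the next. With the Reg1Δ/Δ label there, Lmo2 (316 ± 7.46) and Klf1 (309.9 ± 17.8) overlapped at the top, and Gata2 (45.3 ± 1.67) and Gata3 (0.932 ± 0.102) were last.

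After subtraction of each experiment's mean, the protein-coding genes whose log2 values went most closely with Gata2 over the 10 samples were Pak1, Sfxn3 and Rnf6 (Pearson's r 0.997, 0.996 and 0.995). For Gata1 they were Hdgf, Klf1 and Clybl (0.997, 0.996 and 0.996), and for Tal1 they were Lrpprc, Coq2 and Iars (0.979, 0.972 and 0.968). These are the highest of 10936 values each. The points share libraries and a difference between the groups, so the values are descriptions.

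The scaling moved the calls of all genes, so counts of related genes are read against the shares of all tested genes. These were 37.9% lower and 15% higher, 26.6% lower and 30.9% higher with median-of-ratios scaling, and 20.5% lower and 30% higher with quantile normalization. Of 11 tested partners of the complex around Tal1, Lmo2 and Ldb1, 7 were lower and 1 higher (37.9% and 15% of all), with a median log2 fold change of −0.47. With median-of-ratios scaling 4 were lower and 3 higher, with quantile normalization 5 were lower and 1 higher, and in experiment 2 alone 2 were lower (12.3% of all). Lmo4, a relative of Lmo2 that also binds Ldb1, fell from 15.0 to 18.4 TPM in the controls to 3.32 to 3.71 in experiment 1, and from 73.7 to 78.9 to 17.9 to 21 in experiment 2 (log2 fold change −1.94, FDR = 5.78e-07). Lyl1, the close relative of Tal1, fell by 1.03 on the log2 scale (FDR = 2.76e-05), in the other direction from Tal1. The E protein Tcf4 fell by 1.26 (FDR = 0.000396) and the corepressor Cbfa2t3 (Eto2) fell by 0.80 (FDR = 0.00045). A list of 15 genes held corepressors of Gfi1b and Zfpm1 and also Gfi1, the paralog of Gfi1b. Of the 15, 10 were not called, 4 were lower and 1 was higher (37.9% and 15% of all), with a median log2 fold change of −0.02. As with all genes, the balance moved with the scaling, to 8 higher and 1 lower with median-of-ratios scaling and 3 each with quantile normalization. Gfi1 was 1 of the 4 lower genes and fell by 1.98 (FDR = 0.000349), in the other direction from Gfi1b. It was also the 1 gene of the list called lower with median-of-ratios scaling (FDR = 0.000634). Mbd2, a reader of DNA methylation, rose by 0.61 (FDR = 0.00176), and log2 fold changes of the NuRD subunits Chd4 and Rbbp4 were −0.52 (FDR = 0.0135) and −0.43 (FDR = 0.00902), neither called with median-of-ratios scaling (FDR = 0.244 and 0.583). With quantile normalization Rbbp4 was still called lower (−0.53, FDR = 0.00289), and Chd4 was not called (FDR = 0.15).

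Among 6 tested partners and relatives of Nfe2, 3 were lower and 1 higher, near the 37.9% and 15% of all genes, with a median log2 fold change of −0.44, and with quantile normalization 1 was lower and 1 higher. Bach2, which competes for the same sites, had a log2 fold change of −2.72 (FDR = 3.29e-05), Bach1 of −0.96 (FDR = 0.00133) and Nfe2l1 of −0.53 (FDR = 0.0409). The calls of Bach1 and Nfe2l1 were lost with quantile normalization (FDR = 0.347 and 0.223). Nfe2l2 (Nrf2), the oxidative stress factor, rose by 0.46 (FDR = 0.00664). Of 8 other stem cell factors that bind with Gata2, 7 were lower and none higher (37.9% and 15% of all), with a median of −2.01. The log2 fold change was −3.49 for Meis1 (FDR = 3.61e-07), −3.16 for Erg (FDR = 1.03e-05), −2.72 for Fli1 (FDR = 3.05e-07) and −2.54 for the myeloid factor Spi1 (FDR = 4.92e-06). The other 4 lay between −1.48 (Runx1) and −0.28 (Myb, FDR = 0.110).

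Genes that Gata1 and Klf1 act on in red cells split into those that rose and those that fell. Of 31 tested, 18 were higher and 9 lower, with a median log2 fold change of 0.88, against 15% and 37.9% of all tested genes. Rhag, a red cell membrane protein, rose from 10.7 to 37.5 TPM in the controls to 161 to 245 in experiment 1 and from 35.9 to 39.7 to 144 to 159 in experiment 2 (log2 fold change 2.65, FDR = 0.000129). The globin genes Hbb-bs and Hba-a2 had log2 fold changes of −3.19 (FDR = 5.65e-05) and −3.0 (FDR = 2.78e-05), and the anion exchanger Slc4a1 one of −2.68 (FDR = 0.00011). Hbb-bs had 696 to 1929 and 1546 to 1997 TPM in the controls of the experiments and 161 to 197 and 77.5 to 206 with the Reg1Δ/Δ label. Hba-a2 has a near-identical copy, Hba-a1, and Hbb-bs a close copy, Hbb-bt, so how TPM divides between copies is uncertain. The globins and Slc4a1, products of late red cell precursors, thus went in the other direction from Gata1 and Klf1, and Rhag in the same direction.

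In contrast, 11 of 13 tested megakaryocyte genes were lower and 1 was higher (37.9% and 15% of all tested genes), with a median of −1.72. One of the 13, Itgb3, reached 1 TPM in the controls alone, and where 1 TPM was asked in every library 6 were lower and 2 higher (35.3% and 19.9% of all). The thromboxane synthase gene Tbxas1 had a log2 fold change of −3.65 (FDR = 5.93e-07), the P-selectin gene Selp of −2.47 (FDR = 0.000172) and Gp9 of −2.15 (FDR = 6.38e-06). The summed TPM of 18 megakaryocyte genes was 486 to 773 and 275 to 329 in the controls of the experiments, and 118 to 140.1 and 59.6 to 63.4 with the Reg1Δ/Δ label. The summed TPM of 31 red cell genes was 4541 to 7965 in the controls of experiment 1 against 12009.5 to 13214, and 9042 to 10798 in those of experiment 2 against 11882 to 12238. The megakaryocyte sum was lower in every library labelled Reg1Δ/Δ. The red cell sum was higher in every one. Its largest part in those libraries was the carbonic anhydrase Car1, named after its values were seen. Car1 had 505 to 2709 TPM in the controls of experiment 1 against 7568 to 8301. In experiment 2 it had 1766 to 1961 TPM in the controls against 6028 to 6243. Without Car1, the sum was 3919 to 6214 in the controls of experiment 1 against 4441 to 5031, and 7276 to 8837 in those of experiment 2 against 5854 to 5995. The groups then overlapped in experiment 1, and the libraries labelled Reg1Δ/Δ were lower in experiment 2. The globins, which fell, were still in that sum. In experiment 2 Hba-a2 had 1981 to 2370 TPM in the controls against 137 to 256, and Hbb-bs 1546 to 1997 against 77.5 to 206. Of the 31 genes, 18 were called higher and 9 lower, so the rise was not that of Car1 alone. No sum without both Car1 and the globins was taken.

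**Figure D5:**
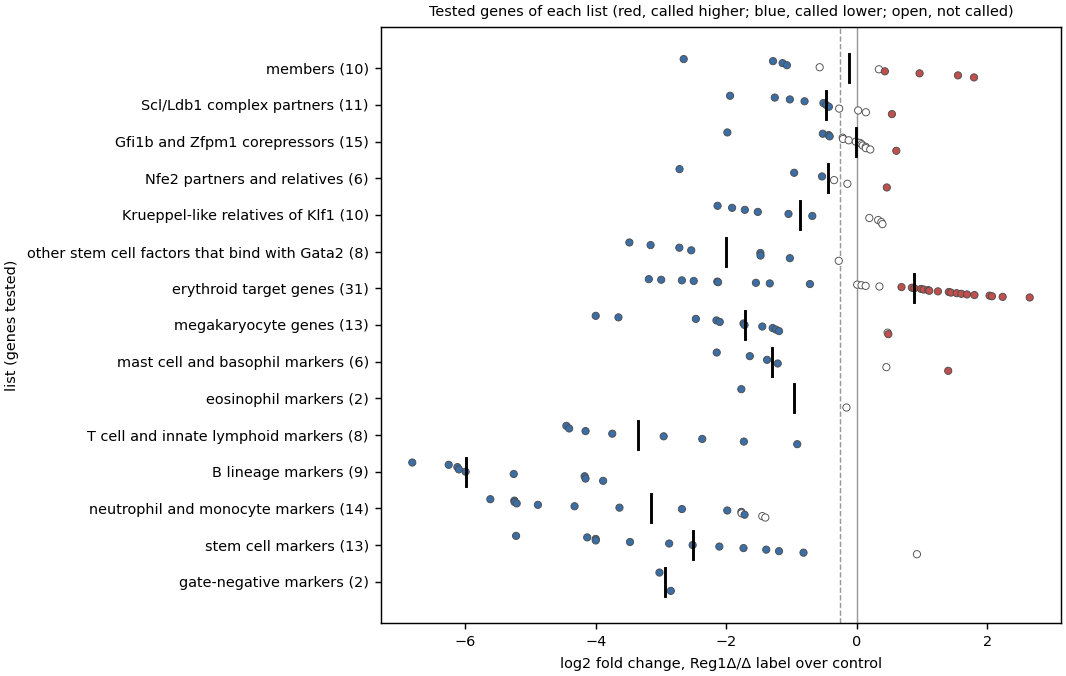
Log2 fold changes of the tested genes of each list, 1 point per gene (red, called higher; blue, called lower; open, not called; bar, median of the list; dashed line, median of all tested genes at −0.25; number tested in parentheses). The red cell list has its median at 0.88. The Krueppel-like, megakaryocyte, T cell, B lineage, neutrophil and stem cell lists hold 1, 1, 3, 1, 2 and 1 genes that reached 1 TPM in the controls alone and so had to lie low.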

How the data were processed

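Paired reads were aligned by the authors to GRCm38 (STAR), TPM of GENCODE M17 transcripts was estimated (Salmon), and log2(TPM + 1) values were deposited. The labels name mm10 and Salmon 0.9.1. The labels and the study's methods name different cDNA kit versions, without a kit per experiment. The log2 scale was undone, 1 was subtracted, and TPM was summed per gene ID. It totals 1000000 per library, so the depth is unknown and no counting intervals are given.

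Groups came from the sample names, and experiments from the names and the group sizes in the study. Genes with at least 1 TPM in at least 5 libraries (12874) were fitted in limma 3.58.1 (R 4.3.3), with the experiment as covariate, a pseudocount of 1 and Benjamini-Hochberg adjustment at 0.05. The difference between experiments was tested as an interaction. Transcripts (31937) were tested in the same way. Tests on counts could not be run on TPM. In simulated data for the comparison of the groups, with 12874 genes, 76 of 100 genes changed by 1 on the log2 scale and 92 of 100 changed by 2 were recovered, and 8 of 176 calls were false. Far more genes were called in the real data (1933 higher and 4880 lower), so these rates need not hold there.

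The members and lists were chosen with earlier results of these data known. Named were the 10 members, Zc3h12a, at most the 4 genes of each list with the largest change, and the 3 genes most like Gata1, Gata2 and Tal1. A gene that this rule names is not reported here. Kit, Ly6a, Mcpt4, Car1, Hba-a1 and Hbb-bt were named after their values were seen, as gate genes, a marker at 0, the leading gene of a sum and gene copies. So were Runx1 and Myb, as ends of a range, and Fgd5 and Itgb3, which reached 1 TPM in the controls alone. Cd3e, Cd3d, Cd3g and Trac were named in this way too, as T cell markers of low level. Gene positions were read from GENCODE M21 (GRCm38), a later release than the authors', and promoters are from RefSeq. Plots were made with Python 3.11.15. Alternatives were other filters, pseudocounts, scalings, transcript classes, each experiment alone, a replicate block and each library left out.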

Additional observations from a re-analysis of the deposited data

Results flagged for a closer look

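Ldb1 had a log2 fold change in experiment 2 that exceeded that in experiment 1 by 1.44 (SE 0.21, interaction FDR = 0.0329 by limma), and the signs were opposite. With protein-coding transcripts rescaled to the same total, the interaction FDR was 0.0419. Of 62 named genes tested for such a difference, this was the 1 that passed. Protein-coding transcripts held 80.2% to 93.6% of the Ldb1 TPM in experiment 1 and 99.4% to 100% in experiment 2, and the level of the gene was 19.1 to 53.3 TPM in experiment 1 and 146 to 199 in experiment 2. The part of these values in the result was not tested. No group held enough samples within an experiment to test single libraries as outlying.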

How the results depend on the processing

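Of the 10 members, Gata1, Gata2, Klf1, Lmo2 and Nfe2 kept their direction and call in all 23 other settings. Leaving out each library gave log2 fold changes from 1.29 to 1.66 for Gata1, from 1.47 to 1.92 for Klf1 and from −1.36 to −1.19 for Gata2. The count of members called higher was 4, and 3 to 5 with a library left out, and that of members called lower was 4, and 4 to 5. Without the experiment as a covariate 2 members were called higher, since Gfi1b (FDR = 0.322) and Tal1 (FDR = 0.850) were lost, and Gata3 (FDR = 0.0758) was lost among the lower. Zfpm1 was called with a trend in eBayes (FDR = 0.0438). Gata3 was not tested where 1 TPM was asked in every library. Ldb1 was reversed in experiment 2 alone, at 0.30, and an Nfe2 transcript of 607 bases with no call went from 0.08 to −0.027 under quantile normalization. The log2 Gata1 to Gata2 ratio differed by 2.83 between the groups, by 3.27 in experiment 1 alone and by 2.18 in experiment 2 alone, and by 2.59 to 3.0 with a library left out. Of 644 counts of list genes under other settings, 74 moved by more than 1.5 times. Leaving out transcripts under 400 bases, the interaction and the ratio in each library on protein-coding transcripts, the red cell sum without Car1 and the mast cell sum without Cpa3 were chosen after seeing the data. DESeq2 and edgeR were not run, since the files hold no counts.

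The replicate numbers of the labels were checked for pairing. Deviations from the group means of same-numbered libraries correlated at 0.033, 0.175 and 0.068 in experiment 1 and at −0.054 in experiment 2. Differently numbered libraries of experiment 1 correlated at −0.116 to 0.061. With so few libraries the check cannot tell whether the numbers mark pairs. Under a block for that number 4545 genes were called lower and 1703 higher, 3 members were higher and 4 lower, and the FDR was 0.0651 for Tal1 and 0.0505 for Zc3h12a.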

Other observations

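Of 10 tested Krueppel-like relatives of Klf1, 6 were called lower in the libraries labelled Reg1Δ/Δ and 4 were not called (37.9% of all tested genes were lower and 15% higher). Where 1 TPM was asked in every library, 3 were lower and 1 higher. With quantile normalization 3 were higher and 3 lower (30% and 20.5% of all), and with median-of-ratios scaling 4 were higher and 6 lower (30.9% and 26.6%). Klf2, a factor of quiescence in lymphocytes, is the 1 of the 6 that reached 1 TPM in the controls alone. It had 1.08 to 12.4 TPM in the controls of experiment 1 against 0.0466 to 0.148, and 3.67 and 4.24 TPM in those of experiment 2 against 0. Log2 fold changes were −1.91 for Klf6 (FDR = 0.00443 by limma), −1.72 for Klf12 (FDR = 0.00477, and 0.112 with quantile normalization) and −1.52 for Klf10 (FDR = 9.29e-05).

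Among 6 tested mast cell and basophil markers, 4 were lower and 1 was higher (37.9% and 15% of all). Where 1 TPM was asked in every library 2 were lower and 1 higher, and with quantile normalization 1 was lower and 2 were higher. Cpa3, a mast cell protease, fell by 2.15 (FDR = 6.58e-06). Il1rl1, the receptor of IL-33, rose by 1.40 (FDR = 0.00671), from 2.16 to 7.32 TPM in the controls to 19.4 to 24.5 in experiment 1 and from 19.6 to 24.5 to 30.6 to 31.2 in experiment 2. Of 2 tested eosinophil markers 1 was lower, Ear2, at −1.77 on the log2 scale (FDR = 0.00723, and 0.144 with quantile normalization). The 8 eosinophil markers in the files summed to at most 19.2 TPM in any library.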
